A study of Mus musculus with 6 samples.

Results

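Cavin-3, the product of Prkcdbp, was first found as a protein that binds protein kinase C delta. The 8 protein kinase C (PKC) genes described here were Prkca, Prkcb, Prkcd, Prkce, Prkch, Prkci, Prkcq and Prkcz. They were taken as a fixed list of gene symbols that no measured value defined, and are 8 of the 19937 genes that could be named on the array. Earlier results of these data were known when the list was chosen. The question was whether adipose tissue without cavin-3 held different levels of the RNAs of this kinase family. No such difference was detected with 3 arrays per group: each of the 8 lay between 0.856-fold and 1.07-fold of WT. The 95% intervals of these folds reached from 0.641-fold (Prkca) to 1.27-fold (Prkce), so differences within them were not excluded. In each of the 8 the WT and KO arrays overlapped. Overlap was usual, since only 4.61% of all genes had WT and KO values that did not overlap.

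Total RNA of the fat of 3 WT mice and 3 mice lacking cavin-3 (KO) was hybridised to Affymetrix Mouse Gene 1.0 ST arrays, with 1 array for each sample. The mice were litter mates of 10 weeks and had been fasted for 6 hours. KO mice were homozygous for an allele in which a lacZ/neo cassette replaced the full-length gene, and the line used in Boston came from a single clone of ES cells injected into C57BL/6 blastocysts. Which fat depot was sampled is not stated in the labels or methods, and the arrays of a group are taken to be separate mice from the paper's legend.

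PKCs are serine and threonine kinases that carry signals from lipids at the membrane. The conventional isoforms (Prkca, Prkcb) are switched on by diacylglycerol together with calcium, the diacylglycerol-only isoforms (Prkcd, Prkce, Prkch, Prkcq) by diacylglycerol without calcium, and the atypical isoforms (Prkci, Prkcz) by neither, working instead in complexes with scaffold proteins. In fat and muscle the diacylglycerol-only isoforms are known for dampening insulin signalling when diacylglycerol builds up, and the atypical isoforms for their part in insulin-stimulated glucose uptake.

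Cavin-3 itself had log2 intensities of 10.05, 10.90 and 10.45 in WT, and of 6.79, 6.78 and 7.12 in KO. It was thus at 0.0843-fold in KO (95% interval 0.0578 to 0.123), with an adjusted p of 0.0409 from limma. This call was lost under 10 of 18 alternatives, among them the methods' t-test (adjusted p of 1 after Benjamini-Hochberg) and the replicate block (0.681 from limma), while the log2 difference stayed between -3.78 and -3.35. Of the 34760 probe sets, 2 passed an adjusted p of 0.05 (0.00575%). Since the cassette replaces the full-length gene in KO, the cavin-3 fold need not measure RNA that remains. The KO signal of cavin-3 was above that of Prkcq and Prkcz on every array. Whether those 2 genes stood above background was not tested.

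The arrays differed in ways that genotype does not account for. The methods state that only male animals were analysed, but Xist had log2 intensities of 11.15 and 11.34 in WT replicate 2 and KO replicate 3, respectively, and at most 6.30 on the other arrays. The Y-linked gene Uty had 3.36 and 3.21 in that pair and 7.89 to 8.14 elsewhere, so the levels of both genes in WT replicate 2 and KO replicate 3 were those of female tissue. The same pair had the highest means of the skeletal muscle list (8.70 and 8.84, against 6.07 to 7.17 elsewhere) and of the brown adipocyte list (7.59 and 7.58, against 5.96 to 6.23). WT replicate 1 and KO replicate 2 had the highest means of the smooth muscle list (10.58 and 10.46, against 8.27 to 9.48) and of the epididymis epithelium list (5.53 and 5.16, against 3.97 to 4.14). Of the 7 measured epididymis markers, Adam7 (10.33 and 9.19, against 3.67 to 4.51) and Defb1 (7.96 and 6.68, against 3.89 to 4.52) carried that rise, and Lcn5, Lcn8, Lcn9, Rnase10 and Spag11b lay between 3.29 and 4.91 on all 6 arrays. The adipocyte list, with all 8 of its markers measured, including Adipoq and Plin1, lay between 11.65 and 11.89 on all 6 arrays, so the tissue label was borne out by its defining markers. In whole tissue, fewer cells of a type and less RNA per cell cannot be told apart.

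**Figure D1:**
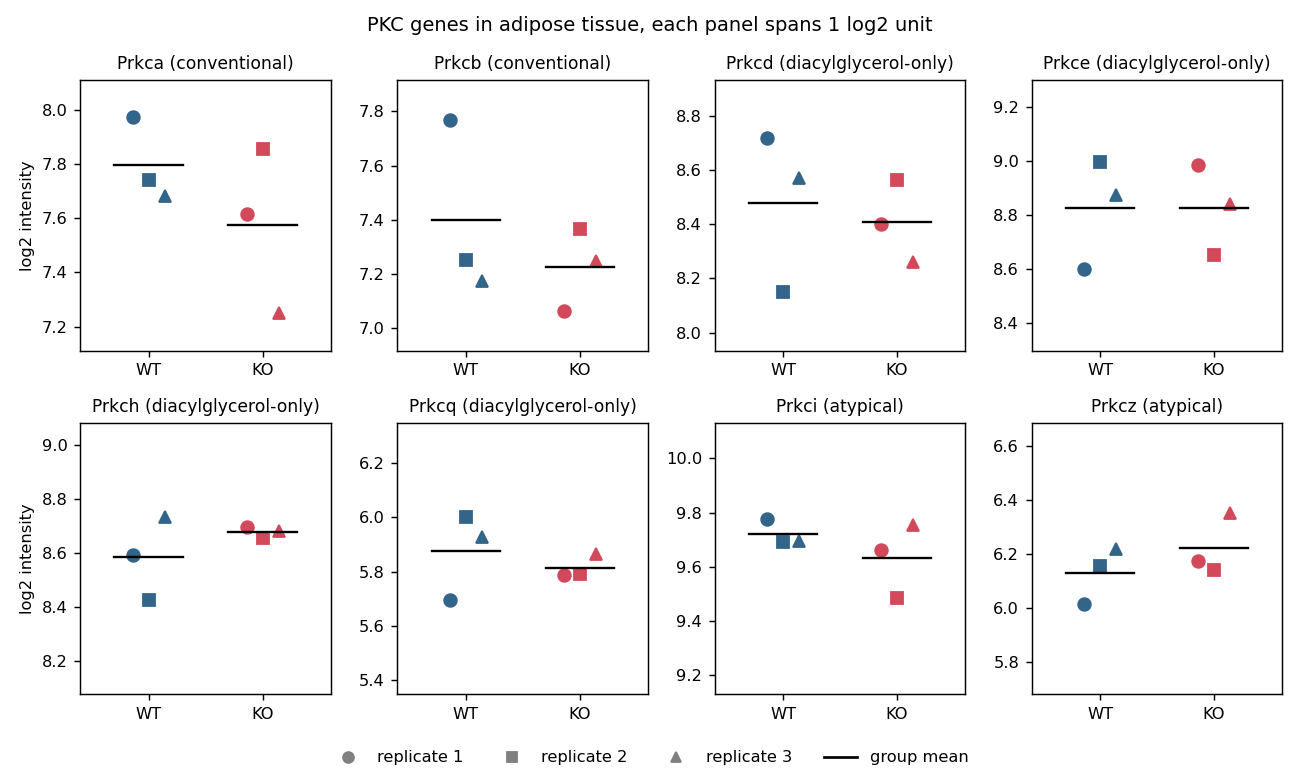
Log2 intensity of the 8 PKC genes (vertical axis) on the 3 WT and 3 KO arrays, with a symbol for each replicate number and a line at each group mean. Each panel spans 1 log2 unit, and the WT and KO points overlap in all 8.

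Of the 8 PKC genes, 3 had a higher and 5 a lower mean in KO. By limma 0 of the 8 passed an adjusted p of 0.05, each with an adjusted p of 1, and 0 had an unadjusted p under 0.05, which 0.838% of all genes had. The methods' t-test on log2 values gave 0 of 8 by either measure. The WT and KO values overlapped for all 8, where 4.61% of all genes had values that did not overlap. The median log2 difference of the 8 was -0.07, against 0.0009 over all genes, and the median size of a difference without its sign was 0.09, against 0.07. For each of the 8 the larger of the ranges within WT and within KO exceeded the difference between the genotypes. The share of all genes for which this holds was not counted. The smaller range fell short of the difference for Prkch (0.04 in KO against 0.0939) and Prkci (0.0843 in WT against 0.0868).

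Prkcd (probe set 10418410), which encodes the isoform that cavin-3 binds, had log2 intensities of 8.72, 8.15 and 8.57 in WT and 8.40, 8.56 and 8.26 in KO. WT held both the highest and the lowest array, with all 3 KO arrays between them. Prkcd was at 0.952-fold in KO (95% interval 0.718 to 1.26), a log2 difference of -0.07 (standard error 0.17). Single arrays set its sign: the log2 difference was 0.05 without WT replicate 1, 0.0017 without KO replicate 3 and -0.24 without WT replicate 2. WT replicate 2 and KO replicate 3, the arrays with the high Xist signal, were also the lowest for Prkcd. Without both, the log2 difference was -0.16 with an unadjusted p of 0.243 from limma, over 2 WT and 2 KO arrays whose values no longer overlapped, as was so for 28.2% of all genes with those 4 arrays.

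The mouse RefSeq annotation (GRCm38.p6) gives Prkcd more than 1 start site. The promoter window of the upstream start is shown because this gene makes the binding partner of cavin-3. It spans chr14:30626159-30626458 on the minus strand, from 250 bases before to 50 bases after the start, and the capitals mark the letters GGGCGG, the GC box that Sp1-type factors bind.
Prkcd upstream start: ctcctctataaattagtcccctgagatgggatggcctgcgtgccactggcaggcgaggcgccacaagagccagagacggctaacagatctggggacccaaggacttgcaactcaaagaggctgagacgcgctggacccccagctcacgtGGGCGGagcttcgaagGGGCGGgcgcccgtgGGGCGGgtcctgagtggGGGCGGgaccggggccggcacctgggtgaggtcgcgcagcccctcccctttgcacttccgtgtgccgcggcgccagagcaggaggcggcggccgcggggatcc
The GGGCGG letters occur 4 times, first at 101, 85, 70 and 53 bases before the start. The window also holds CACGTG, the E-box of the circadian clock factors, at 106 bases before the start, where its last base is shared with the first GC box, and TATAAA at 244 bases before it. Its GC content was 69.3%, whereas the window of the downstream start (chr14:30610261-30610560, minus strand) had 51.3% and none of these letters.

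Windows were listed for 6 of the 8 genes, 9 windows in all. Searched on both strands, GGGCGG was in 7 of the 9 member windows and in 35.7% of the 32851 windows of this length in the table. CACGTG was in 1 of the 9 and in 7.15% of all windows, and TATAAA in 1 of the 9 and in 13.6%. CCAAT was in 1 of the 9, the most upstream window of Prkcz, and in 37.4% of all. The windows of the most upstream start had a GC content of 59.7% in Prkci, 65.3% in Prkcb, 71.0% in Prkcz, 73.0% in Prkcq and 75.3% in Prkca, against a median of 52.7% over all windows. These letter matches describe the windows and are not measured binding sites.

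Among the conventional isoforms, Prkca (probe set 10392388), which is found in most tissues, had log2 intensities of 7.97, 7.74 and 7.68 in WT and 7.62, 7.86 and 7.25 in KO. KO replicate 3 was the lowest array and WT replicate 1 the highest, and the other 4 arrays were mixed by genotype. Prkca had the widest difference of the family, 0.856-fold in KO (0.641 to 1.15), or -0.22 on the log2 scale (standard error 0.17). The log2 difference was -0.06 without KO replicate 3 and -0.36 without KO replicate 2, the latter with an unadjusted p of 0.0720 from limma, the smallest that any PKC gene reached under any setting.

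Prkcb (probe set 10557177), the other conventional isoform and one that is abundant in B cells and myeloid cells, had 7.77, 7.25 and 7.18 in WT and 7.06, 7.36 and 7.25 in KO. WT replicate 1 stood above all other arrays, and the other WT arrays lay within the KO range. Prkcb was at 0.887-fold in KO (0.658 to 1.197), a log2 difference of -0.17 (standard error 0.18), and the log2 difference was 0.01 without WT replicate 1. The highest arrays of both conventional genes were WT replicate 1 and then KO replicate 2, the pair with the high smooth muscle and epididymis epithelium lists. Without both of these arrays the log2 difference was -0.28 for Prkca and -0.06 for Prkcb. B cell markers, 7 of 8 measured, had list means of 4.85 to 5.09 in WT and 4.80 to 5.01 in KO, and macrophage markers, 8 of 8 measured, 7.90 to 8.24 in WT and 7.90 to 8.09 in KO. Their part in the Prkcb values was not tested.

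**Figure D2:**
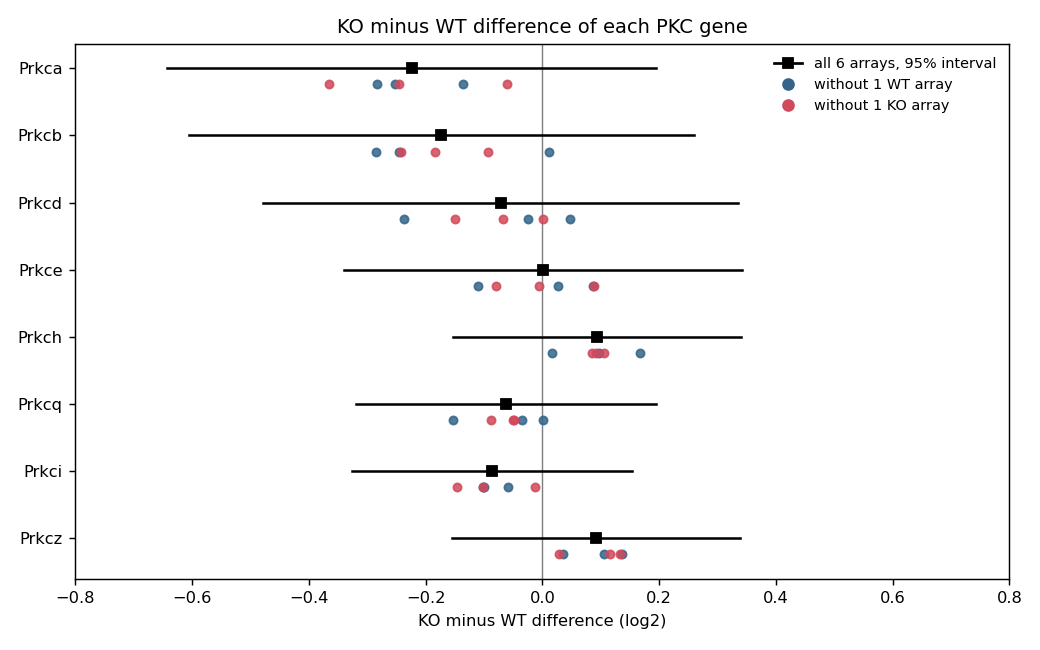
KO minus WT difference on the log2 scale (horizontal axis) for each PKC gene, with squares and 95% intervals from limma over all 6 arrays and circles for the value without 1 array. All 8 intervals cross 0, and the circles of Prkcb, Prkcd, Prkce and Prkcq lie on both sides of it.

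Among the other diacylglycerol-only isoforms, Prkce (probe set 10447294), which has been linked to insulin resistance in lipid-loaded liver, had log2 intensities of 8.60, 8.997 and 8.88 in WT and 8.99, 8.65 and 8.84 in KO. Each genotype had an array near the top and an array near the bottom of the same range. The WT mean of 8.82 ± 0.20 (SD, n = 3) and the KO mean of 8.83 ± 0.17 (SD, n = 3) were the closest of the family, at 1.001-fold (0.790 to 1.27). Its log2 difference ran from -0.11 to 0.09 without single arrays.

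Prkch (probe set 10396402), an isoform known from epithelia and endothelium, had 8.59, 8.43 and 8.73 in WT and 8.70, 8.66 and 8.68 in KO. The 3 KO arrays were within 0.04 of each other and lay inside the WT range. In KO it was at 1.07-fold (0.900 to 1.27), a log2 difference of 0.09 (standard error 0.10), which was 0.02 without WT replicate 2. A further Prkch probe set (10396419), annotated with a single cDNA accession, had 6.52, 6.54 and 6.45 in WT and 6.62, 6.53 and 6.56 in KO, with a log2 difference of 0.07. With the mean of both probe sets the WT and KO values of Prkch did not overlap, as was so for 4.59% of all genes under that setting, and the unadjusted p from limma was 0.316.

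Prkcq (probe set 10469255), the isoform of T cells and skeletal muscle, had 5.69, 6.00 and 5.93 in WT and 5.79, 5.79 and 5.86 in KO. Its mean signal was below the median of all probe sets, the only such case among the 8 chosen probe sets, and all 3 KO arrays lay inside the WT range. In KO it was at 0.958-fold (0.802 to 1.14), a log2 difference of -0.06 (standard error 0.11), which was 0.0016 without WT replicate 2. The mean of the skeletal muscle list ran from 6.07 in WT replicate 3 to 8.84 in KO replicate 3, while the whole range of Prkcq was 0.31. T cell markers, 6 of 8 measured, had list means of 5.38 to 5.57 in WT and 5.19 to 5.42 in KO.

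Of the atypical isoforms, Prkci (probe set 10491279), a kinase of cell polarity complexes, had 9.78, 9.69 and 9.70 in WT and 9.66, 9.49 and 9.75 in KO. The WT arrays were within 0.08 of each other, KO replicate 2 was the lowest array and KO replicate 3 lay inside the WT range. The KO mean was 0.942-fold of WT (0.798 to 1.11), a log2 difference of -0.09 (standard error 0.10), which was -0.01 without KO replicate 2 and -0.15 without KO replicate 3.

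Prkcz (probe set 10519117), the other atypical isoform, had 6.02, 6.16 and 6.22 in WT and 6.17, 6.14 and 6.35 in KO. KO replicate 3 was the highest array and WT replicate 1 the lowest, with the others mixed. The KO mean was 1.07-fold of WT (0.899 to 1.26), a log2 difference of 0.09 (standard error 0.10), and it was 0.03 without KO replicate 3. The gene has a further probe set (10561335), which had 6.24, 5.99 and 6.03 in WT and 6.19, 6.28 and 5.72 in KO, with a log2 difference of -0.02. The 2 probe sets of Prkcz ranked the arrays in nearly opposite order, with KO replicate 3 the highest on the first and the lowest on the second (Pearson's r -0.84 over the 6 arrays, given as a description). The value read for Prkcz on single arrays therefore depends on which of its annotated probe sets is used. Which of them measures Prkcz better was not settled. Both were dim, with mean signals at percentile 51.2 of all probe sets for the first and 49.6 for the second.

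For every PKC gene, most of the variance over the 6 arrays lay within the genotypes rather than between them. This does not set the family apart, since the median share between genotypes was lower still over all genes. The share of a gene's variance over the 6 arrays that lay between genotypes ran from 0.0015% for Prkce to 24.2% for Prkca (median 18.3%, against 7.09% over all genes) and was 97.8% for cavin-3. WT replicate 1 gave the highest value of 4 members and the lowest of 3, so that 1 array held an extreme of 7 genes on the chosen probe sets. Prkca, Prkcb, Prkcd and Prkci were highest in WT replicate 1, and Prkce, Prkcq and Prkcz were lowest there. With the further probe set of Prkcz the count was 6, since WT replicate 1 was then second highest (6.24). The share of all genes with an extreme in WT replicate 1 was not counted. Between whole arrays, Pearson's r was lowest for WT replicate 1 with WT replicate 2 (0.973) and with KO replicate 3 (0.975). For WT replicate 1 with KO replicate 2, r was 0.990. The count is therefore not shown to be particular to these genes. The members did not move as a group: of the 28 pairs of genes, 12 had a Pearson's r above 0 over the 6 arrays and 16 below 0, with 1 probe set per gene. The pair of Prkca and Prkcz depended on that choice, with an r of -0.95 on the chosen Prkcz probe set and 0.86 on the further one. These are descriptions over 6 arrays that share a normalization.

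**Figure D3:**
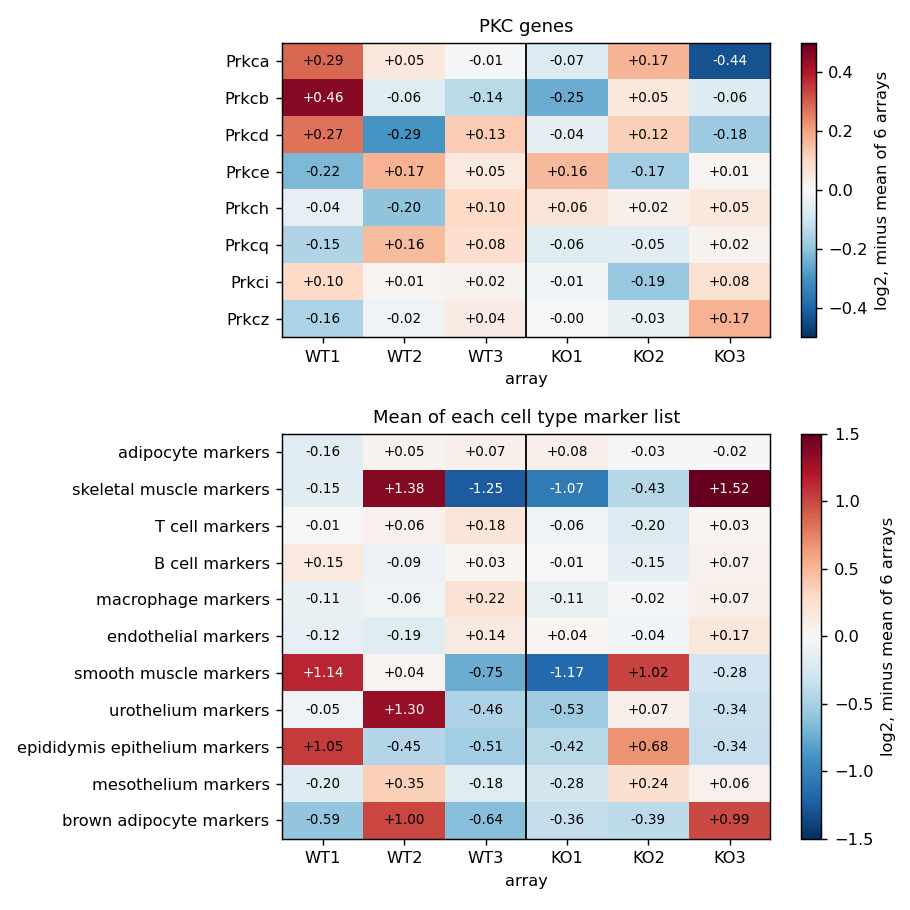
Log2 value of each PKC gene (upper panel) and mean log2 value of each cell type marker list (lower panel) on every array, as the difference from the mean of the 6 arrays; the colour scale is wider below. WT replicate 1 holds the highest or lowest value of 7 of the 8 PKC genes, which for Prkcz holds on the chosen probe set and not on the further one. The share of all genes with an extreme there was not counted.

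Over 88 pairs of a PKC gene and a cell type list, several followed a list closely across the arrays. Prkcb ran opposite to adipocyte markers (r = -0.96) and with epididymis epithelium markers (r = 0.89), and Prkce did the reverse (r = 0.87 and r = -0.93). For both genes WT replicate 1 was the extreme array, and it had the lowest adipocyte mean (11.65) and the highest epididymis epithelium mean (5.53), which rests on Adam7 and Defb1. Prkcd ran opposite to brown adipocyte markers (r = -0.90). Their mean was highest in WT replicate 2 and KO replicate 3, which rests mainly on Ucp1, Cidea, Cox7a1, Elovl3 and Cox8b. Prkch ran with endothelial markers (r = 0.86), of which 8 of 8 were measured, with list means of 9.43 to 9.76 in WT and 9.58 to 9.79 in KO, and opposite to urothelium markers (r = -0.96), whose mean was 8.69 in WT replicate 2 and 6.85 to 7.46 elsewhere. The mesothelium list, 8 of 8 measured, had means of 7.98 to 8.53 in WT and 7.90 to 8.41 in KO. These values of r were picked out of the 88 and rest on 6 arrays, and the part of any cell type in the PKC values was not tested.

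The genes whose pattern over the arrays was most like that of each PKC gene were sought among the other 19936 genes by Pearson's r over the 6 arrays. Closest to Prkcd were the chemokine gene Ccl17 (r = 0.998) and Gm8624 (0.994). Ccl17 had log2 intensities of 6.75, 5.90 and 6.52 in WT and 6.30, 6.57 and 6.09 in KO, and like Prkcd was highest in WT replicate 1 and lowest in WT replicate 2. Closest to Prkca were Papss1 (0.994), which makes the sulfate donor of the cell, and Med22 (0.993), a Mediator subunit. Prkcb was followed by Arhgef4 (0.996) and Skap1 (0.993), an adaptor of T cells, and Prkce by Plgrkt (0.992) and Amacr (0.980), a racemase of branched fatty acids. Prkch was closest to Ube2q1 (0.993) and Khnyn (0.990), and Prkcq to Olfr818 (0.995) and Morc4 (0.988). Prkci was closest to Ppip5k2 (0.994), an inositol pyrophosphate kinase, and Tigd2 (0.988), and Prkcz to St8sia4 (0.993) and Mtmr2 (0.993), a phosphoinositide phosphatase. The closest gene had an r of at least 0.992 for every 1 of the 8, so a value of this size does not set a gene apart with 6 arrays.

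The other genes of the pathway, from the enzymes that make diacylglycerol to the substrates of PKC, were examined in 9 lists. Apart from cavin-3, 84 of the 95 listed genes were measured, of which 44 had a higher and 40 a lower mean in KO (median log2 difference 0.0044). By limma 0 of the 84 passed an adjusted p of 0.05 and 0 had an unadjusted p under 0.05, and the methods' t-test gave 0 at an unadjusted p under 0.05. The WT and KO values did not overlap for 3 of the 84 (3.57%, against 4.61% of all genes): Prkd2 was higher in KO, and Phlpp2 and Lmnb1 were lower.

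Upstream, the 10 phospholipases C, which release diacylglycerol from a membrane phosphoinositide, had log2 differences of -0.10 (Plcb3) to 0.18 (Plcd4), with 7 higher and 3 lower in KO. Of the Gq list, 8 of 11 genes were measured, and the alpha subunits Gnaq and Gna11, which switch on phospholipase C beta, differed by 0.02 and 0.04. Among 13 genes that remove or make diacylglycerol at the phosphatidate step, 10 were higher and 3 lower (median 0.02), with Dgka, a diacylglycerol kinase, at 0.09 and Dgkd at 0.03. None of the measured genes of these lists had an unadjusted p under 0.05 from limma.

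Newly made PKC is primed by PDK1 and mTORC2 and later dephosphorylated by the PHLPP phosphatases. Pdpk1 differed by -0.0020 and Mtor by 0.03, and Rictor, the defining mTORC2 subunit, by 0.16 (unadjusted p = 0.222 from limma). Phlpp2 had log2 intensities of 8.04, 8.06 and 8.07 in WT and 8.02, 7.85 and 7.98 in KO. The groups did not overlap, by 0.02 at their closest, and the log2 difference was -0.11 (unadjusted p = 0.258 from limma).

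Of the proteins that bind PKC, cavin-2 (Sdpr), which was also described as a PKC substrate, differed by 0.04, cavin-1 (Ptrf) by -0.02 and Copb2, which binds PKC epsilon, by -0.03. Apart from cavin-3, 12 genes of this list were measured, 5 higher and 7 lower in KO (median -0.01). Among the nearest kinases, Prkd2, a protein kinase D that PKC phosphorylates, had 8.11, 7.99 and 8.12 in WT and 8.26, 8.16 and 8.13 in KO. All 3 KO arrays lay above the WT arrays, by 0.01 at their closest, with a log2 difference of 0.11 (unadjusted p = 0.251 from limma).

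The PKC substrate list leaned to one side: 10 of its 11 measured genes had a lower mean in KO and 1 a higher. Its median log2 difference was -0.08, against 0.0009 over all genes. This lean was not tested for the list as a set, and the share of all genes lower in KO was not counted. Lmnb1, which encodes lamin B1, had 6.92, 6.70 and 6.56 in WT and 6.41, 6.47 and 6.53 in KO, without overlap, and the log2 difference of -0.25 had an unadjusted p of 0.0659 from limma, the smallest of the 84 genes, and an adjusted p of 1. Marcks, the myristoylated substrate that cross-links actin at the membrane, differed by -0.23, with KO replicate 3 the highest of all 6 arrays. Its relative Marcksl1 differed by -0.36 and had 7.29 in WT replicate 1 against 6.31 to 6.50 on the other arrays. Nrgn differed by -0.24 and had 7.87 in WT replicate 1 against 6.41 to 6.98 on the others. WT replicate 1 was also the highest array for Lmnb1. Among other diacylglycerol receptors, Rasgrp1 to Rasgrp4, the exchange factors for Ras, differed by -0.07, 0.08, 0.16 and 0.10, and in the CARD, Bcl10 and Malt1 list Map3k7 had the smallest unadjusted p, 0.264 from limma, at 0.11.

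**Figure D4:**
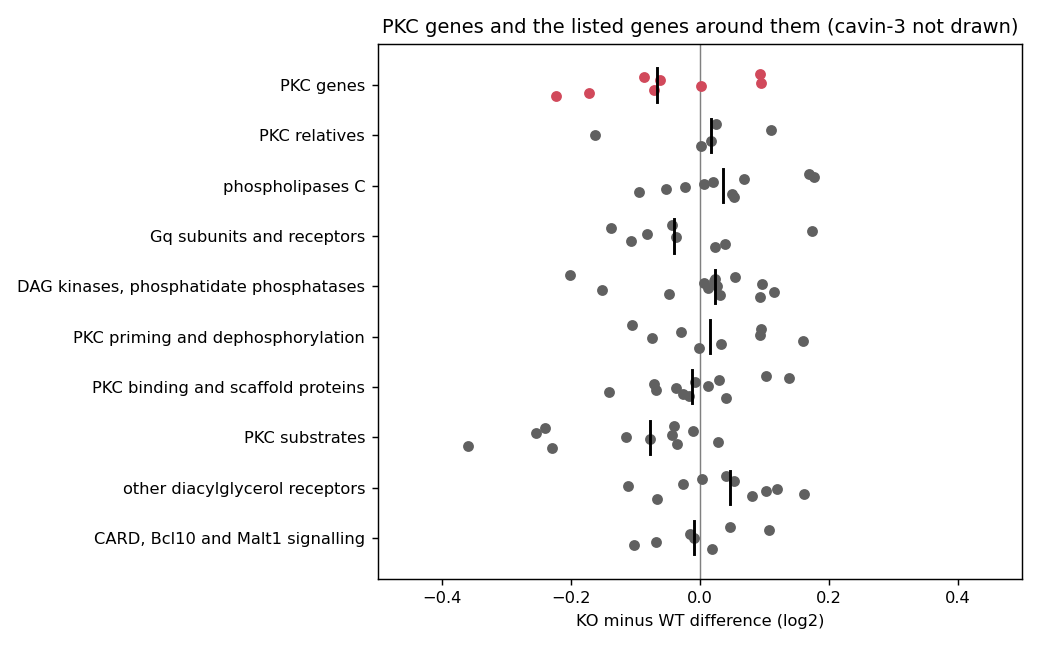
KO minus WT difference on the log2 scale (horizontal axis) for each PKC gene and each measured gene of 9 pathway lists, with 1 point per gene and a line at the median of each row. The PKC genes lie between -0.22 and 0.09, and all listed genes other than cavin-3, which is not drawn, lie between -0.36 and 0.18.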

How the data were processed

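The authors deposited linear intensity values per probe set of 6 Affymetrix Mouse Gene 1.0 ST arrays, and the submitters' processing notes name RMA (background correction, quantile normalization, probe summary) without a version. The genome build behind the array annotation is not named by the paper or the labels. Signal over background was not analysed here, and precision is limited by the number of arrays. The methods amplify the RNA before labelling.

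On the log2 scale, KO and WT arrays were compared over all 34760 probe sets by limma 3.58.1 (lmFit and eBayes, R 4.3.3) with Benjamini-Hochberg adjustment. All limma p-values in the text come from this fit unless a setting is named. Folds are antilogs of the log2 differences, with 95% intervals. Alternatives were the methods' t-test (Student, on log2 or linear values), array weights, a trended and robust variance, median centring, a further quantile normalization, probe sets above the median signal, those with 1 symbol, a gene's mean over its probe sets, the replicate number as a block, and fits without arrays. The procedure was also run on simulated data, from which no conclusion on these arrays is drawn.

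Genes were named from the platform annotation, on which 21640 probe sets have 1 symbol, 1321 have several and 11799 are not listed. Of the first, 21553 matched RefSeq (GRCm38.p6). Older list symbols (Prkcdbp, Sdpr, Ptrf) were updated through its synonyms. For each gene the probe set with the highest mean was used. Promoter windows come from RefSeq, and no protein sequences were used.

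The PKC genes, the 20 gene lists (167 of 182 genes measured) and the pair of arrays WT replicate 2 and KO replicate 3 were chosen with earlier results of these data known. Besides the PKC genes and cavin-3, the rule named the first 4 measured genes of each pathway list, that with the smallest p, the first 2 of each cell type list, and 2 genes most like each PKC gene. Plcd4, Phlpp2, Nrgn, Xist, Uty, Cd3g, the epididymis and brown adipocyte markers beyond the rule and the extremes of lists were named after their values were seen. The fit without WT replicate 1 and KO replicate 2 was added after the data had been seen.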

Additional observations from a re-analysis of the deposited data

How the results depend on the processing

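Under 18 alternatives (17 for Prkcq, which is too dim for the filter on low signal), none of the PKC genes reached an adjusted p of 0.05 or an unadjusted p of 0.05, and 132 of 143 values kept their sign. Prkce, at 0.0012 with all arrays, was at -0.0017 on linear values, -0.0209 with array weights and -0.0236 without both WT replicate 1 and KO replicate 2, where Prkci was at 0.0144. Leaving out 1 array gave log2 differences of -0.36 to -0.06 for Prkca, -0.28 to 0.0121 for Prkcb, -0.24 to 0.0473 for Prkcd, -0.11 to 0.0882 for Prkce, 0.02 to 0.17 for Prkch, -0.15 to 0.0016 for Prkcq, -0.15 to -0.01 for Prkci (-0.1611 without both WT replicate 2 and KO replicate 3) and 0.03 to 0.14 for Prkcz.

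The replicate numbers did not pair the arrays: deviations of same-numbered arrays from their group means correlated at -0.15, -0.37 and -0.09. Arrays of different numbers were more alike. The deviations correlated at 0.52 for WT replicate 1 and KO replicate 2, and at 0.48 for WT replicate 2 and KO replicate 3. For WT replicate 3 and KO replicate 1 the value was 0.37. The main fit has no term for such likeness across the genotypes, so its p-values and intervals do not allow for it. With a replicate block the difference of cavin-3 stayed at -3.57 (adjusted p = 0.681 from limma) and 0 probe sets passed, against 2 without it, and no PKC gene passed. Cavin-3 also lost its call with the methods' t-test, on log2 (-3.57) or linear values (-3.60), without both WT replicate 2 and KO replicate 3 (-3.46) and without both WT replicate 1 and KO replicate 2 (-3.72). Without single arrays it ran from -3.78 to -3.35 and lost its call in 5 of 6 fits (adjusted p from limma 0.0722 and 0.509 when WT replicate 2 or 3 was left out, and 0.438, 0.324 and 0.361 when KO replicate 1, 2 or 3 was), but not without WT replicate 1 (0.0459). The number of probe sets called was 0 with either t-test and without either pair of arrays, 1 with single-symbol probe sets or the mean of a gene's probe sets (both of which test fewer rows), and 1 to 2 without single arrays.

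Non-overlapping PKC genes numbered 1 (Prkch) with the mean of its probe sets (4.59% of all genes), 0 to 1 without single arrays (9.93 to 15.1%), and 2 without either pair (28.2% without WT replicate 2 and KO replicate 3, 25.6% without WT replicate 1 and KO replicate 2). At an unadjusted p under 0.05, 1 PKC substrate appeared with quantile normalization and without both WT replicate 2 and KO replicate 3, and 0 to 1 without single arrays, as for phospholipases C. The causes were not tested.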
